A study of Mus musculus with 17 samples.

Results

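Cd274 and Pdcd1lg2, the adjacent mouse genes for PD-L1 and PD-L2, were examined in 16 lists of ChIP-seq peaks from bone marrow-derived macrophages. They are 2 of the 21887 protein-coding genes of the reference used. Their spans in mm10 (GRCm38) are chr19:29362107-29388095 for Cd274 (gene ID 60533, 26.0 kb) and chr19:29410919-29472927 for Pdcd1lg2 (gene ID 58205, 62.0 kb), both on the plus strand and 22.8 kb apart. The table's Cd274 span begins before the reference transcript start at 29367438, from which distances are counted here; Pdcd1lg2 starts at 29410919. Every peak whose summit, its highest point, lay within 20 kb of either span was taken, which gave 104 peaks over a window of 151 kb. Peaks that overlapped by at least 1 bp were merged into 28 sites, numbered 1 to 28 from the Cd274 side to the Pdcd1lg2 side.

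PD-L1 and PD-L2 are membrane proteins that bind the inhibitory receptor PD-1 on T cells and dampen T cell responses. PD-L1 is found on many cell types and is known to be induced by interferons, with IRF1 as a known activator of its gene. PD-L2 is largely restricted to antigen-presenting cells and is known for its induction by interleukin 4 (IL4) through STAT6 in macrophages.

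The marrow came from C57BL/6 mice, and cells were taken at day 7 of their differentiation. The labels call the IRF1, JUNB, CEBPB and MYC samples wild type (wt); those of STAT6 and the input give the strain and no genotype. They were left untreated, given IL4 at 10 ng/ml, interferon gamma (IFNg) at 100 ng/ml, or both (IFNg+IL4). STAT6, which the IL4 receptor activates, was mapped after 2 h of IL4 or IFNg+IL4. For IRF1, a factor that interferons induce, for JUNB, which forms part of AP-1, and for CEBPB, a bZIP factor prominent in myeloid cells, there were lists from untreated cells and from cells given IFNg or both cytokines for 4 h. For MYC, a growth regulator, there was an untreated list and lists after 2 h or 4 h of IL4 or IFNg+IL4. There is no STAT6 list from untreated cells and no IL4-alone list for IRF1, JUNB or CEBPB among the samples used here. Each group was 1 library, so no difference between treatments could be tested and each comparison describes these libraries.

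The promoters are shown because STAT6, IRF1, JUNB and MYC peaks met at both transcript starts and because a motif match fell under the strongest STAT6 peak of the locus. They are the 250 bases before each start (RefSeq, build GRCm38.p6, plus strand), chr19:29367188-29367437 for Cd274 and chr19:29410669-29410918 for Pdcd1lg2. Capitals mark the match to the STAT motif with a spacer of 4 bases.

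Cd274 promoter: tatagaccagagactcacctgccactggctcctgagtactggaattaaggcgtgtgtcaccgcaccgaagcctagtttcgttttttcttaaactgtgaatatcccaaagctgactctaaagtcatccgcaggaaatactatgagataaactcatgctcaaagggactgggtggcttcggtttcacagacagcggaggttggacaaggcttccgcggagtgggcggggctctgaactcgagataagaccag

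Pdcd1lg2 promoter: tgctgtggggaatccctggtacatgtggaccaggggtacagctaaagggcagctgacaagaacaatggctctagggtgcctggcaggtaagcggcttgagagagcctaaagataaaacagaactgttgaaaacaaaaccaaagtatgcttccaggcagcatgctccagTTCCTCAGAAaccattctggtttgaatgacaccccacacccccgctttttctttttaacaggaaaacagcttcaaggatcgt

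Motifs were searched on both strands as the STAT motif with a spacer of 4 or of 3 bases, an IRF motif, the AP-1 motif TGANTCA, the C/EBP motif TTGCNNAA and the E-box CACGTG. A single match was found, TTCCTCAGAA in the Pdcd1lg2 window at chr19:29410837-29410846, 82 to 73 bp before the start. The STAT motif with a spacer of 4 occurs in 5.85% of 32851 promoter windows of this length, the one with a spacer of 3 in 7.02%, the IRF motif in 2.98%, AP-1 in 6.75%, C/EBP in 9.56% and the E-box in 6.02%. The centre of the match lay 14.5 bp from the STAT6 summit with IL4 and 25.5 bp from the one with IFNg+IL4. The MYC summits with IL4 lay 26.5 bp (2 h) and 6.5 bp (4 h) from it. For IRF1 with IFNg+IL4 the distance was 12.5 bp, so nearness to the match was not particular to STAT6. The JUNB summit with IFNg+IL4 was 63.5 bp away. No letters of these 6 motifs were found in the 250 bases before Cd274, a window that does not reach the IRF1 summits there. A match is a description of letters, and only the window shown was searched.

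A value called level below is the number of reads stacked over a peak's summit, divided by the depth of its library relative to the input library. Both were recovered from the fold enrichment and p-value of the peaks, for 101 of the 104 peaks. Relative depth ran from 0.329 (MYC, IFNg+IL4 2 h) to 1.55 (untreated JUNB). The lists held from 244 peaks (untreated IRF1) to 24927 peaks (STAT6, IL4). They name only regions above a threshold, so a site absent from a list may still hold reads. None of the 128 input peaks fell at the locus. The label of macrophages was checked on marker genes: 10 of 10 macrophage markers had a peak in some list, with a median of 46 peaks per gene over the 16 lists. The medians were 1 for T cell markers (3 of 4 with a peak) and 20 for B cell markers (3 of 3). They were 0 for fibroblast (1 of 3) and 0 for granulocyte markers (1 of 3). The median of all genes was 5, below that of the B cell markers too, so these counts cannot establish the label. The share of all genes with a peak in some list was not computed. A peak near a gene does not measure its expression.

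**Figure D1:**
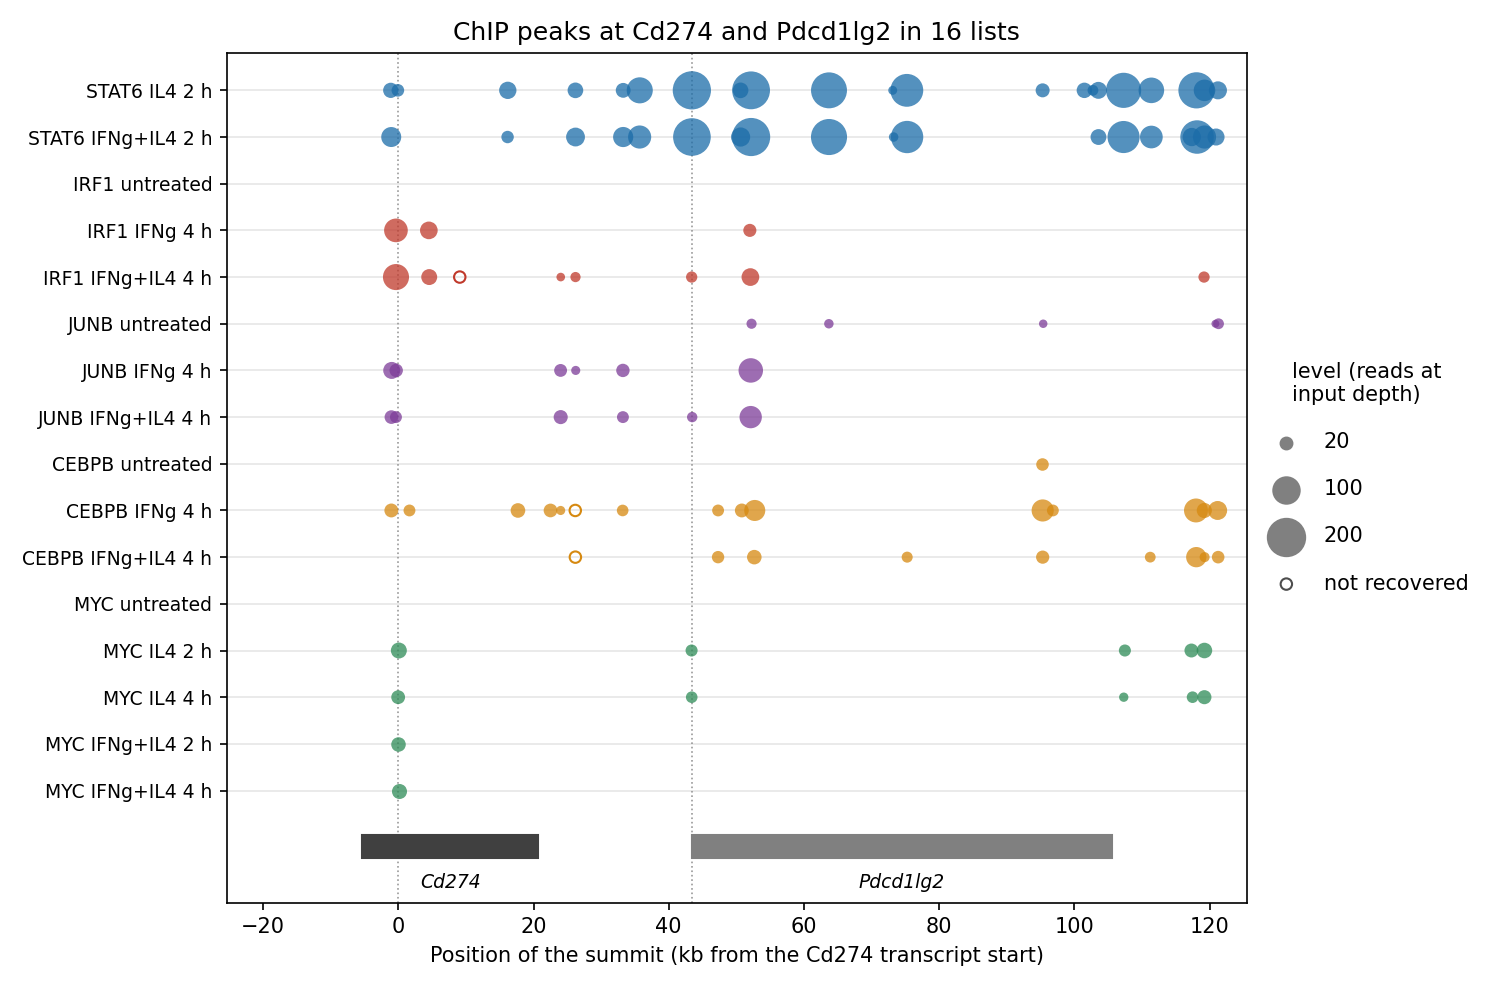
Position of each peak summit in kb from the Cd274 transcript start (x axis) in the 16 lists (rows), with circle area proportional to level and gene spans as bars; open circles are 3 peaks without a recovered read count. The largest STAT6 circles sit between the Pdcd1lg2 start and site 26 past its end, and the largest IRF1 circles at the Cd274 start. The rows of untreated IRF1 and untreated MYC are empty.

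Peaks were found at the locus in 14 of the 16 lists, all except untreated IRF1 and untreated MYC. STAT6 occupied 20 of the 28 sites, CEBPB 17, JUNB 9, IRF1 8 and MYC 5. STAT6 was alone at 6 sites, CEBPB at 5 and IRF1 at 2, whereas every JUNB or MYC site held another factor. STAT6 was at all 5 MYC sites, 8 of 9 JUNB sites, 11 of 17 CEBPB sites and 5 of 8 IRF1 sites. For all sites together it was 20 of 28, and overlap between factors over the whole lists was not computed. A site pools peaks of all treatments and times. Of the sites, 7 were in 1 list, 10 in 2 or 3 lists and 11 in 4 or more lists. They lay inside the Cd274 span (6), between the genes (6), inside the Pdcd1lg2 span (11) and past its end (5). None lay in the 20 kb before the Cd274 span, which begins before the transcript start. Site 1 is counted inside that span, though most of its summits lie before the transcript start. Whether a site is exonic or intronic was not analysed here.

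By list, STAT6 had 21 peaks with IL4, in a list that placed a peak near 49.8% of all protein-coding genes, and 18 with IFNg+IL4 (46.0% of genes). IRF1 had 0 peaks untreated (2.47% of genes), 3 with IFNg (18.0%) and 8 with IFNg+IL4 (29.7%). JUNB had 5 untreated (25.2%), 6 with IFNg (20.7%) and 6 with IFNg+IL4 (16.8%). CEBPB had 1 peak untreated (20.7%), 15 with IFNg (48.2%) and 9 with IFNg+IL4 (22.4%). MYC had 0 untreated (4.72%), 5 with IL4 at 2 h (51.1%) and 5 at 4 h (44.8%), and 1 with IFNg+IL4 at 2 h (20.9%) and 1 at 4 h (22.6%). Having at least 1 peak is thus common for STAT6, MYC with IL4 and CEBPB with IFNg, and the number of peaks carries more of the description.

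Pdcd1lg2 had more peaks than Cd274 in the STAT6, CEBPB and MYC IL4 lists, and Cd274 had as many or more in the IRF1 lists. Near Pdcd1lg2 there were 18 STAT6 peaks with IL4 and 16 with IFNg+IL4, and 0.192% and 0.183% of genes had as many. Near Cd274 there were 6 and 5 (5.64% and 6.34% of genes). For CEBPB with IFNg+IL4, Pdcd1lg2 had 9 peaks, a number that 5 genes in all reached (0.0228%), and Cd274 had 1. IRF1 with IFNg gave 2 peaks near Cd274 and 1 near Pdcd1lg2, and with IFNg+IL4 it gave 5 near each, which 0.535% of genes reached. JUNB with IFNg gave 5 near Cd274 (0.676% of genes) and 4 near Pdcd1lg2. A longer gene has a wider window, so the number was also taken per kb. By that measure 0.256% of genes were at least as dense in STAT6 IL4 peaks as Pdcd1lg2, and 3.44% as Cd274, and for CEBPB with IFNg+IL4 the shares were 0.0274% and 13.1%. For CEBPB with IFNg they were close, at 0.594% and 0.649%. Cd274 was the denser gene for IRF1 with IFNg+IL4 (0.247% of genes, against 1.00% for Pdcd1lg2), IRF1 with IFNg (1.46% against 13.3%) and JUNB with IFNg (0.178% against 2.02%) or IFNg+IL4 (0.302% against 1.34%). Peaks between the genes within 20 kb of both, such as 3 of the STAT6 IL4 peaks, counted for both.

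**Figure D2:**
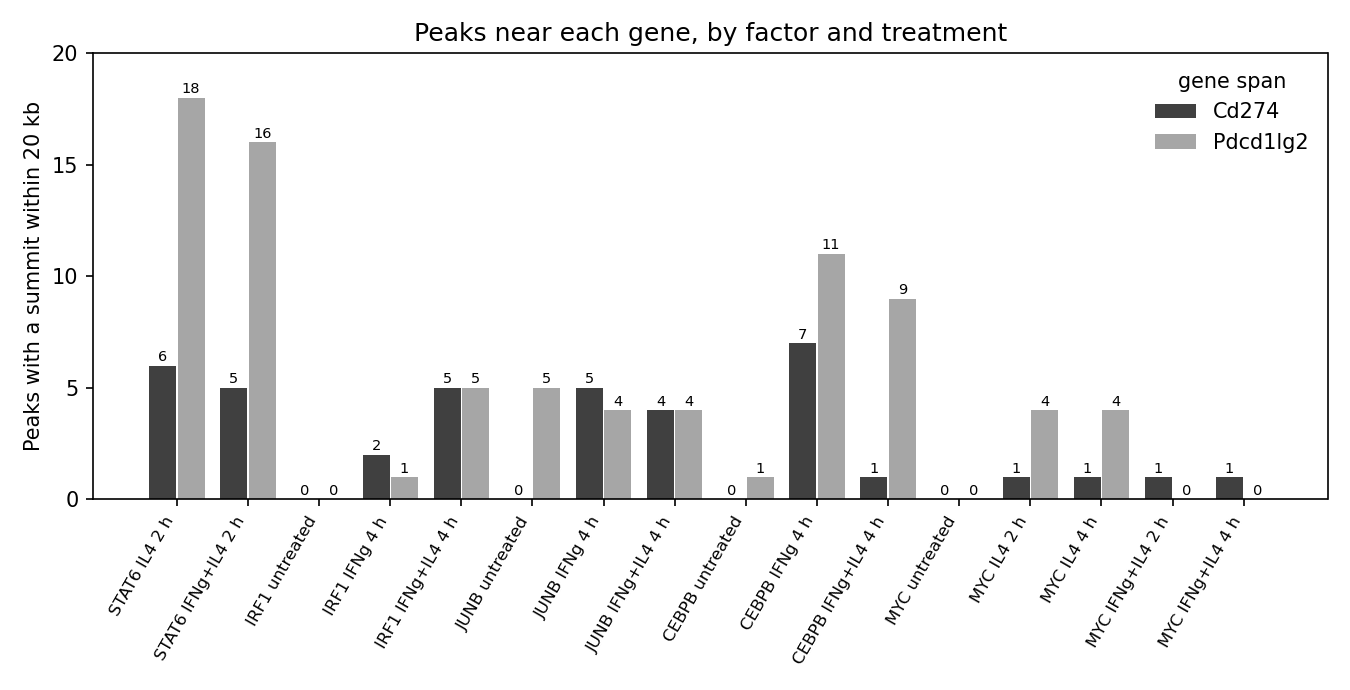
Number of peaks with a summit within 20 kb of the Cd274 span (dark bars) or the Pdcd1lg2 span (light bars) in each of the 16 lists; peaks within 20 kb of both are in both bars. STAT6 reaches 18 near Pdcd1lg2 and 6 near Cd274, and CEBPB with IFNg+IL4 reaches 9 and 1.

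Site 1, at the start of Cd274 (chr19:29366031-29367685), was the only one with all 5 factors, and 11 lists had a peak there. The span of its neighbour Plgrkt, which encodes a plasminogen receptor, ends at 29367292, so peaks here cannot be assigned to 1 gene. The summits fell into groups along the site: the stronger STAT6 and JUNB peaks and CEBPB lay about a kilobase before the start, IRF1 and the second JUNB peak nearer to it, and MYC and a second STAT6 peak with IL4 within 100 bp of it.

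IRF1 at site 1 had 36 reads over the summit with IFNg, a level of 80.7 (exact Poisson 95% interval 56.5 to 112). With IFNg+IL4 it had 91 reads, a level of 97.9 (78.9 to 120). These were the highest IRF1 levels of the locus, with summits 348 and 341 bp before the start. They ranked 552 of 4189 and 331 of 8226 in their lists by p-value. The ratio of the levels was 1.21 with an exact 95% interval of 0.816 to 1.84, which spans 1. IRF1 had no peak here in untreated cells.

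STAT6 at site 1 had 38 reads with IL4 (level 33.5) and 62 with IFNg+IL4 (level 57.5), 1115 and 1044 bp before the start. The ratio of 1.72 (1.13 to 2.64) lay above 1 by more than counting error, and above the median ratio of 0.833 over 16561 paired STAT6 peaks. The spread between replicate libraries is unknown, so the interval covers counting error only, here and below. A second STAT6 peak with IL4, 26 reads and 63 bp before the start, was covered by the single wide peak with IFNg+IL4.

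JUNB had a pair of peaks at site 1 in both treated lists and none untreated. Its reads were 42 and 26 with IFNg and 33 and 25 with IFNg+IL4, and neither ratio (0.646 and 0.790) left 1 outside its interval. CEBPB was listed with IFNg alone, with 37 reads 1028 bp before the start. MYC had 21 reads with IL4 at 2 h, 24 at 4 h, and 10 and 12 with IFNg+IL4 at 2 h and 4 h. Its libraries had relative depths of 0.573, 0.876, 0.329 and 0.368 in that order.

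Inside the Cd274 span the other 5 sites held 1 factor each. Site 3, 4.5 kb into the gene, was IRF1 alone, with 20 reads with IFNg (level 44.8) and 34 with IFNg+IL4 (level 36.6). Site 4, 9.09 kb in, was IRF1 with IFNg+IL4 alone. Sites 2 and 6 were CEBPB with IFNg alone, at 27 and 41 reads. Site 5, 16.2 kb in, was STAT6 alone, with 49 reads with IL4 (level 43.2) and 24 with IFNg+IL4 (level 22.3). This was the only paired STAT6 peak of the locus whose ratio lay below 1 by more than counting error, at 0.516 (0.303 to 0.857).

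Of the 6 sites between the genes, site 7 was CEBPB with IFNg alone (36 reads), site 12 is described with the Pdcd1lg2 start, and the other 4 held several factors or strong STAT6. Site 8 (chr19:29391270-29391637) held JUNB at 24 reads with IFNg and 35 with IFNg+IL4, IRF1 with IFNg+IL4 at 10 reads and CEBPB with IFNg at 16, and no STAT6. It was the only JUNB site of the 9 without STAT6. Site 9 (chr19:29393463-29393866) held STAT6 at 40 and 55 reads, IRF1 with IFNg+IL4 at 14, JUNB with IFNg at 12, and CEBPB in both treated lists. Site 10 (chr19:29400497-29400873) held STAT6 at 36 reads with IL4 and 63 with IFNg+IL4, a ratio of 1.84 (1.20 to 2.86), with JUNB at 26 and 25 reads and CEBPB with IFNg at 26. Site 11, 7.77 kb before Pdcd1lg2, was STAT6 alone at 111 and 83 reads.

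Site 12, at the start of Pdcd1lg2 (chr19:29410467-29411272), held the strongest STAT6 peak of the locus with IL4. STAT6 had 239 reads with IL4, a level of 211 (185 to 239), with the summit 63 bp before the start, and 220 reads with IFNg+IL4, a level of 204 (178 to 233), 52 bp before it. They ranked 109 of 24927 and 232 of 21481 peaks in their lists. The ratio of 0.969 (0.803 to 1.17) spans 1. Both summits are close to the STAT motif letters shown in capitals in the Pdcd1lg2 promoter, as are the IRF1 and MYC summits of this site.

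The other factors at site 12 had few reads. IRF1 and JUNB were listed with IFNg+IL4 and not with IFNg, at 17 and 19 reads, with summits 90 and 14 bp before the start. MYC was listed with IL4 at 2 h (12 reads) and 4 h (17 reads) and not with IFNg+IL4. CEBPB had no peak there in any list. The STAT6 level at the Pdcd1lg2 start was thus several times that at the Cd274 start in both lists, while the IRF1 level was highest at Cd274 (97.9 with IFNg+IL4, against 18.3 at Pdcd1lg2).

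Site 15, 8.70 kb into Pdcd1lg2 (chr19:29419225-29420555), had peaks in 9 lists of 4 factors, and strong ones for STAT6 and JUNB. STAT6 had 234 reads with IL4 (level 206) and 226 with IFNg+IL4 (level 210), ranked 348 and 214 in their lists. JUNB had 23 reads in untreated cells (level 14.9), in a peak with a −log10 q of 0. It had 87 reads with IFNg (level 86.4) and 88 with IFNg+IL4 (level 71.8), ranked 288 of 7428 and 194 of 5556. The JUNB ratio from untreated to IFNg was 5.81 (3.63 to 9.64), against a median of 1.46 over 4229 paired JUNB peaks. IRF1 had 11 reads with IFNg (level 24.7) and 42 with IFNg+IL4 (level 45.2), a ratio of 1.83 (0.927 to 3.95). CEBPB, whose summit lay 9.24 kb into the gene with IFNg, had 85 reads with IFNg (level 63.8) and 40 with IFNg+IL4 (level 30.5).

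Further into Pdcd1lg2, STAT6 was strong at sites 16 and 18. Site 16, 20.2 kb in, had 211 reads with IL4 and 202 with IFNg+IL4, and a JUNB peak in untreated cells (20 reads). Site 18, 31.7 kb in, had 176 and 162 reads, and a CEBPB peak with IFNg+IL4 (23 reads). Sites 14, 17 and 23 were weaker STAT6 sites, at 40 and 57, 13 and 14, and 47 and 39 reads, and site 14 also held CEBPB with IFNg (37 reads). Sites 13 and 20 were CEBPB alone, at 27 reads with IFNg and 29 with IFNg+IL4, and at 27 with IFNg.

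Site 19, 51.8 kb into Pdcd1lg2 (chr19:29462525-29462930), was the only site with CEBPB in untreated cells. CEBPB had 33 reads untreated (level 22.7), 94 with IFNg (level 70.6) and 33 with IFNg+IL4 (level 25.1). The level with IFNg was the high one, as over the paired CEBPB peaks of the whole lists. The ratio of IFNg to untreated was 3.11 (2.07 to 4.78), against a median of 2.42 over 5482 pairs, and that of IFNg+IL4 to IFNg was 0.356 (0.232 to 0.535), against 0.370 over 5977 pairs; both intervals span the median. STAT6 with IL4 (32 reads) and untreated JUNB (16 reads) were also listed here. STAT6 was not listed here with IFNg+IL4, nor at sites 21 and 22 (39 and 19 reads with IL4).

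Past the end of Pdcd1lg2 the 5 sites 24 to 28 all held STAT6. Site 24 (chr19:29474220-29475084) had 202 STAT6 reads with IL4 and 160 with IFNg+IL4, with MYC peaks of 12 and 11 reads with IL4 at 2 h and 4 h. Site 25 had 107 and 80 STAT6 reads, and CEBPB with IFNg+IL4 (22 reads). Site 26 (chr19:29484567-29486052) had 214 and 174 STAT6 reads, and CEBPB at 110 reads with IFNg and 78 with IFNg+IL4. These were the highest CEBPB levels of the locus (82.6 and 59.4). A second STAT6 peak with IFNg+IL4 at this site had 52 reads. MYC had 16 and 17 reads, with summits nearer to that second peak than to the stronger STAT6 and CEBPB summits. Site 27 (chr19:29486401-29486963) had 76 and 83 STAT6 reads, MYC at 20 and 25, CEBPB at 44 and 19, and IRF1 with IFNg+IL4 at 17. Site 28 (chr19:29487999-29488909) had 53 and 45 STAT6 reads, CEBPB at 69 and 30, and a pair of JUNB peaks in untreated cells.

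The STAT6 lists set IL4 alone beside IFNg+IL4, both at 2 h. Of the 21 peaks with IL4, 18 overlapped a peak with IFNg+IL4 (85.7%, exact Clopper-Pearson 95% interval 63.7 to 97.0%), against 68.7% over the whole list. In the other direction 18 of 18 did, against 80.3%. All 6 peaks near Cd274 were kept, and 15 of 18 near Pdcd1lg2. Over 16 pairs with summits at most 200 bp apart the median ratio of levels was 0.989, against 0.833 over the 16561 pairs of the whole lists. The ratios ran from 0.516 to 1.84. The interval lay above 0.833 at 5 sites (1, 9, 10, 14 and 15), below it at 0 and across it at 11. The 5 strongest sites with IL4 (12, 15, 26, 16 and 24) had ratios of 0.969, 1.02, 0.856, 1.01 and 0.834, none with an interval outside 1. The STAT6 libraries were of similar depth, at 1.13 and 1.08.

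**Figure D3:**
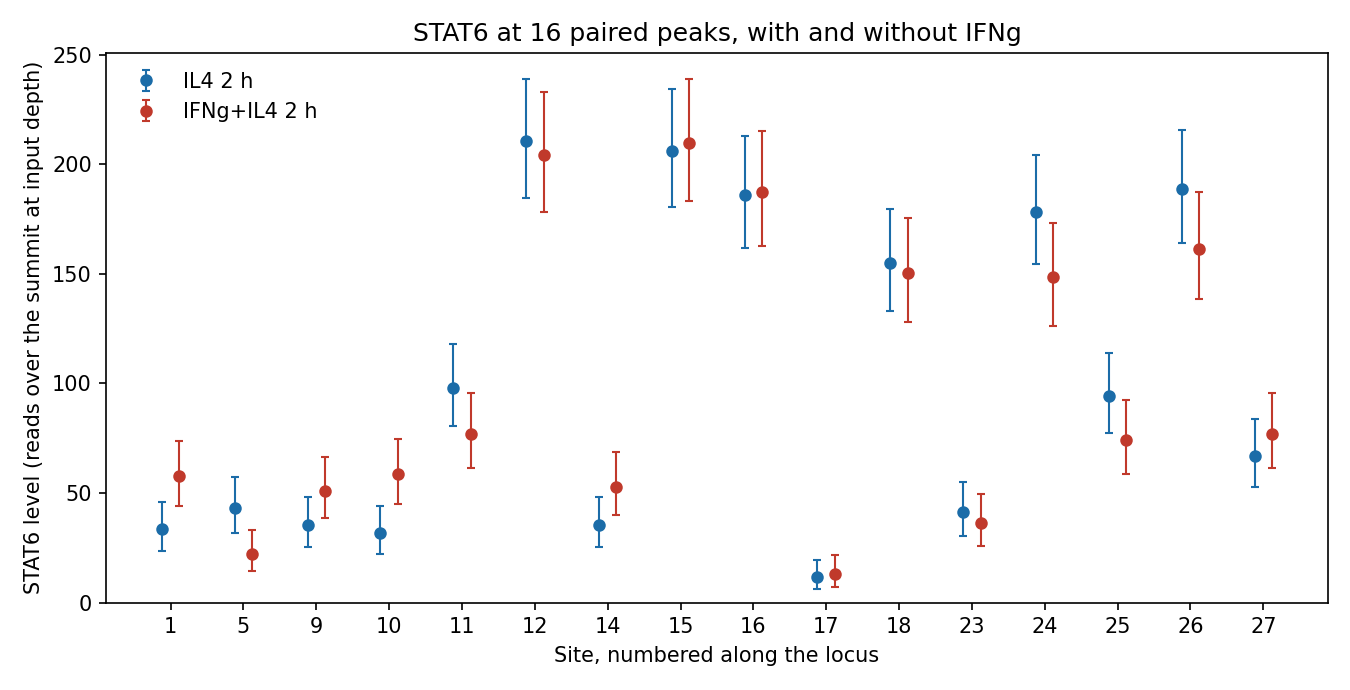
STAT6 level (reads over the summit at input depth, y axis) at the 16 paired peaks by site number, with IL4 (blue) and with IFNg+IL4 (red); bars are exact Poisson 95% intervals for counting error only. At site 12 the points are 211 and 204, and at sites 1 and 10 the IFNg+IL4 point is the higher one.

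For IRF1, all 3 peaks with IFNg were kept with IFNg+IL4 (95.2% over the whole list), and 0 of 3 had a peak in untreated cells (5.54%). Only 3 of the 8 peaks with IFNg+IL4 were listed with IFNg (37.5%, 8.52 to 75.5%), against 47.6% over the list. Relative to the IFNg library, the depth of the IFNg+IL4 library was 2.08. Of the 5 other peaks, at sites 4, 8, 9, 12 and 27, 1 had no recovered reads. With reads scaled to the depth of the IFNg library, 3 met its threshold and 1 did not. The 3 had a −log10 p of 6.16 to 6.35 at that scale, against a lowest value of 5.54 in the IFNg list. Counting error was left out of this scaling. The part of depth in the larger number was not tested further. With both lists limited to equal length by p-value, 3 of 3 were listed with IFNg, and the share over the whole shortened lists was not computed.

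For JUNB, 1 of 6 peaks with IFNg was listed in untreated cells (16.7%), against 58.7% of the whole list. It is the site 15 peak, which in untreated cells did not reach the −log10 q of 2 that the other lists met. Of the 5 untreated peaks 1 was listed with IFNg (20.0%), against 46.9%. Only 1 of these 5 reached a −log10 q of 2, the one at site 28 with 26 reads. With the untreated list held to that threshold no locus peak was shared in either direction, and the whole-list shares at that threshold were not computed. Between IFNg and IFNg+IL4, 5 of 6 were shared in each direction (62.0% and 82.9% over the lists), with site 9 found with IFNg and site 12 with IFNg+IL4 only. The 5 paired ratios had a median of 0.790, close to 0.801 over all pairs.

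For CEBPB, 1 of 15 peaks with IFNg was listed in untreated cells (6.67%, 0.169 to 31.9%), against 25.6% of the whole list. With IFNg+IL4, 7 of the 15 were kept (46.7%, 21.3 to 73.4%), against 28.2%. The 7 kept are at sites 9, 13, 15, 19, 26, 27 and 28. Near Cd274 1 of 7 was kept, and near Pdcd1lg2 7 of 11. The kept peak near Cd274 is that of site 9, which lies within 20 kb of both genes and is in both counts. In the other direction 7 of 9 were listed with IFNg (97.5% over the list), and the other 2 lay at sites 18 and 25, under STAT6 peaks. At the 6 kept sites with recovered reads the ratio of levels had a median of 0.459, against 0.370 over 5977 pairs. At 5 of them it lay below 1 beyond counting error, and at site 13 it was 1.09 (0.623 to 1.91). Depth was similar, at 1.33 and 1.31. With both lists limited to equal length by p-value, 3 of 3 locus peaks with IFNg were kept, and 3 of 9 in the other direction. The shares over the whole shortened lists were not computed.

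**Figure D4:**
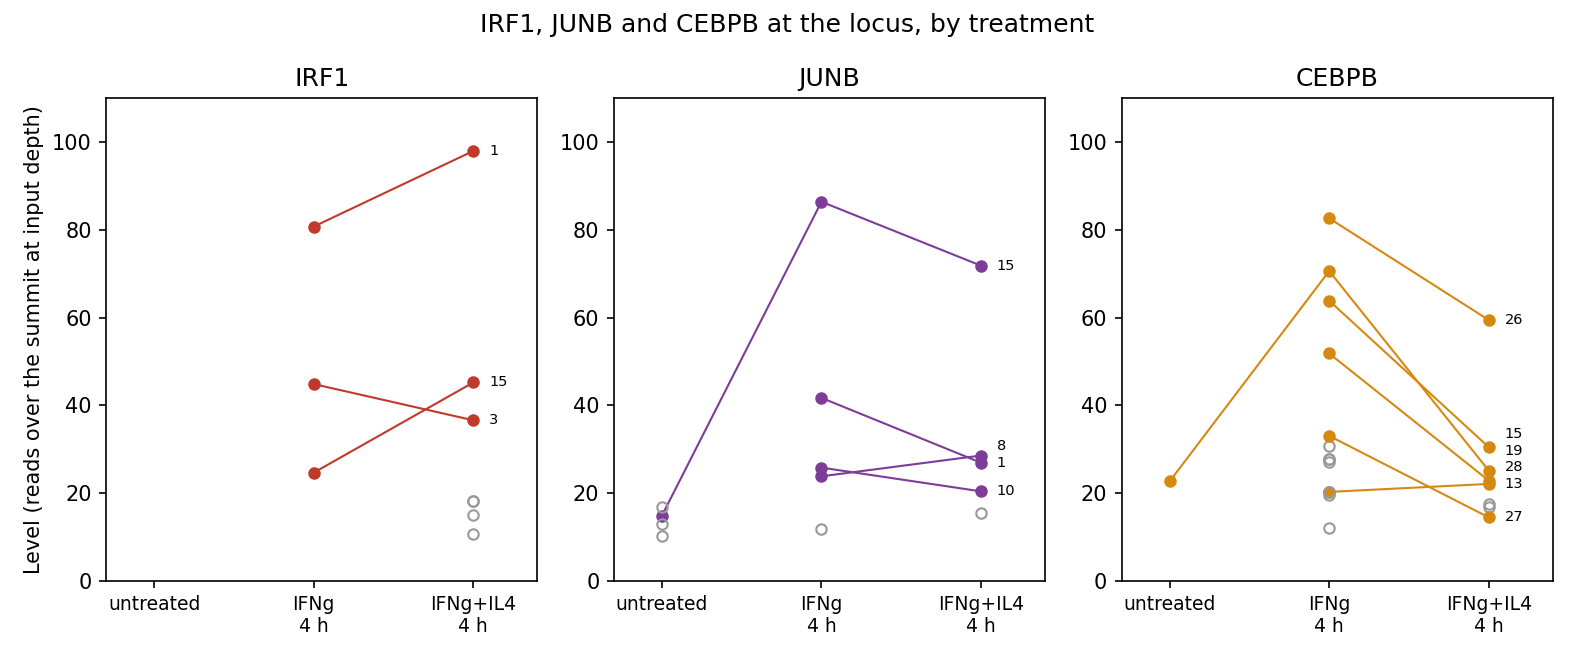
Level (reads over the summit at input depth, y axis) of IRF1, JUNB and CEBPB at each site by treatment, the strongest peak of a site in each list; lines join sites listed in 2 or more lists, with the site number at the right, and open grey circles are sites in 1 list. JUNB at site 15 goes from 14.9 untreated to 86.4 with IFNg, and CEBPB is lower with IFNg+IL4 than with IFNg at all its joined sites except 13.

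For MYC, none of the 5 peaks with IL4 at 2 h was listed in untreated cells (3.57% over the list), in libraries of similar depth (0.573 and 0.555). Of these 5, 4 were kept at 4 h (63.1%), and 4 of 5 at 4 h were listed at 2 h (87.8%). At site 24 the 2 h and 4 h peaks did not overlap. The median ratio of 4 h to 2 h over 4 pairs was 0.783, against 0.701 over 7771 pairs. With IFNg+IL4, 1 of 5 was kept at 2 h (20.8%) and 1 of 5 at 4 h (30.8%), in both cases the peak at the Cd274 start. These libraries had 0.575 and 0.420 times the depth of their IL4 partners. With reads scaled to those depths, 3 of the 4 missing peaks at 2 h and 2 of 4 at 4 h met the threshold. Counting error was left out of this scaling, and the part of depth was not tested further. A reciprocal overlap of 50% left 0 of 5 kept at either time, and the whole-list share under that rule was not computed.

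Over all 16 lists Pdcd1lg2 had 82 peaks in 12 lists, a number that 38 genes (0.174%) reached, and Cd274 had 39 in 12 lists, which 599 genes (2.74%) reached. The median of all genes was 5. Of 20 other ligands of T cell co-receptors 19 had a peak, with a median of 14.5. The share of all genes with a peak in any list was not computed. MYC with IL4 at 2 h alone had a peak near 51.1% of genes, so having a peak is common. None of the ligands had more peaks than Pdcd1lg2, and 2 had more than Cd274. These were Cd86, a ligand of CD28, with 47, and Tnfsf18, the ligand of GITR, with 44. Cd80, the other CD28 ligand, had 7, Icosl, the ligand of ICOS, 24, Cd276 29, Cd40 28 and Vsir 23. Cd70 had none.

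The genes whose counts per list ran most like those of Pdcd1lg2, by Pearson's r of log2(count + 1) over the 16 lists among 12795 genes, were Tns3 (r = 0.972), Ptpra (0.969), Hhex (0.961), Chn2 and Lims1. For Cd274 they were Rtn4rl2 (0.904), Syna (0.904), Chrna5 (0.900), Gca and Gm5142. The lists share factors and libraries and differ in length, so these correlations only describe the counts.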

How the data were processed

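The data were 16 ChIP libraries and 1 input library, 1 per group by the labels, so nothing was pooled or paired. The submitters' processing notes name Bowtie2 2.2.6, MACS2 2.1.0.20150731 and the build mm10/GRCm38. Peak names in the lists carry a bandwidth of 100 in all 17, a q threshold of 0.01 in 14 (the 3 JUNB lists carry "qE2") and the input as control in 16. Any other setting is not given in the sources used here. For each peak the authors' caller gave a fold enrichment, the deposited ratio of pileup to background at the summit. It also gave the deposited −log10 p and −log10 q. The deposited score restates these significance values and was not used. Another deposited column, the offset from the peak's start, gave the summit.

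Peaks on the main chromosomes were used, and those overlapping an input peak (0 to 39 per list) were left out. From fold and p together the pileup and background of a peak were solved, and their smallest steps gave the depth relative to the input and the whole reads over the summit, for 95.0 to 99.9% of the peaks of a list. This assumes 1 input for all lists, scaled linearly. A peak was kept if it overlapped a peak of the other list by 1 bp. Pairs for ratios also needed summits at most 200 bp apart. Intervals are exact (Clopper-Pearson for shares, Poisson for levels, conditional binomial for ratios) at 95% and cover counting error only. PCR copies are not independent molecules.

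Gene spans and promoters came from RefSeq tables of GRCm38, and all 20 ligands of the list were matched. Scripts (Python 3.11.15, numpy 2.4.6, pandas 2.3.3, scipy 1.17.1, matplotlib 3.10.9) were tested on simulated data. Named were the members, all sites, neighbours within 200 kb, a list of other co-receptor ligands, and per member the 5 genes with the most similar counts among those with a peak in at least 3 lists and not within 200 kb. The members and lists were chosen with earlier results of these data known. No test was run, since each group is 1 library. Alternatives were the window, the q threshold, input peaks kept in, the overlap rule and list length.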

Additional observations from a re-analysis of the deposited data

How the results depend on the processing

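No paired analysis was possible because each group is 1 library and the labels give no replicate numbers. For the same reason no library could be left out. The 28 sites and 14 lists stayed within 1.5 times under the other windows, thresholds and rules tried. Keeping input peaks in could not change values at the locus, because no input peak fell there. Intervals on few peaks are also wide and easily met. The shares of IRF1 peaks with IFNg and of MYC peaks with IL4 at 2 h listed in untreated cells could not leave 0. Those untreated lists held no locus peak at any window or threshold tried. Alternatives fixed in these ways are counted below, so the count overstates how well the shares held. Within these limits, 116 of 135 alternative shares of kept peaks stayed within the interval of the main share. The others, mostly of lists with few peaks, were these.

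With the lists of a pair limited to equal length by −log10 p, the share kept was 100% for IRF1 IFNg+IL4 in IFNg (3 of 3 peaks), JUNB IFNg in IFNg+IL4, CEBPB IFNg in IFNg+IL4 (3 of 3) and MYC IL4 in IFNg+IL4 at 2 h (1 of 1), 33.3% for CEBPB IFNg in untreated and for CEBPB IFNg+IL4 in IFNg, and 0% for JUNB between untreated and IFNg in both directions. The untreated JUNB peaks at a −log10 q of at least 2 also gave 0% in both directions, and a −log10 q of at least 5 gave 0% for JUNB IFNg in untreated and 100% for JUNB IFNg in IFNg+IL4, as did a window of 5 kb for the latter. A reciprocal overlap of 50% gave 0% for CEBPB IFNg in untreated and for MYC IL4 in IFNg+IL4 at 2 h and at 4 h. Summits within 200 bp gave 100% for MYC IL4 between 2 h and 4 h in both directions. Limiting the first list to peaks above the threshold at the scale of the second, chosen after seeing the data, gave 0% for untreated JUNB in IFNg. Shares over the whole lists were not computed under these alternatives.

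A window of 5 kb left 10 STAT6 IFNg+IL4 peaks, 4 CEBPB IFNg+IL4 peaks and 3 peaks each of untreated JUNB and of MYC IL4 at 2 h and 4 h. A −log10 q of at least 5 left 0 untreated JUNB peaks, and of at least 2 left 1. The share of genes with a peak near it followed the window in every list, for example 37.6% at 5 kb and 62.9% at 50 kb for STAT6 with IL4, 20.4% and 44.0% for IRF1 with IFNg+IL4 and 2.94% and 7.66% for untreated MYC. For untreated JUNB it was 16.8% at a −log10 q of at least 2 and 10.4% at 5, against 25.2%. Some levels rest on few reads, such as the MYC level of 30.4 at the Cd274 start on 10 reads.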

Other observations

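Within 200 kb of the members lay 6 other protein-coding genes. Jak2, which encodes a kinase of the IFNg receptor, lies 49.0 kb from the Cd274 span and had 4 STAT6 peaks with IL4 and 4 with IFNg+IL4. It had 3 IRF1 peaks with IFNg and 3 with IFNg+IL4, and none untreated. JUNB had 2, 3 and 3 and CEBPB 1, 4 and 3 peaks near it (untreated, IFNg, IFNg+IL4), and MYC 1 with IL4 at each time and 0 with IFNg+IL4. Ric1, 49.3 kb past Pdcd1lg2, had 1 STAT6 peak in each list and 2 IRF1 peaks with IFNg+IL4. Insl6 and Rln1 lie between Jak2 and Cd274 and encode relaxin family peptides. In each treated IRF1 list 1 IRF1 peak lay near them, within 20 kb of both. Insl6 and Rln1 each also had 1 STAT6 peak with IFNg+IL4 and 0 with IL4. Ermp1, 137 kb past Pdcd1lg2, had 1 STAT6 peak in each list and 1 IRF1 peak with IFNg+IL4. It had 2 JUNB peaks untreated, 1 in each treated JUNB list, and 1 MYC peak with IL4 at 2 h.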
